A study of Arabidopsis thaliana with 8 samples.

Results

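Contacts with both ends in the inverted repeat of the plastid genome were described, from Hi-C of chloroplast membrane preparations of Arabidopsis thaliana. Hi-C ligates DNA ends that are near each other in space and reads the ligated fragments by sequencing, and here the counts are given for pairs of 1-kb bins. The repeat occurs as 2 copies of opposite orientation, of 27 bins each, at positions 84001 to 111000 and 128001 to 155000 of the deposited TAIR10 map. Its members are the 1485 bin pairs with both bins in these copies, of 12090 pairs in all (12.3%). Because the copies are identical, the second was laid onto the first. A bin and its image in the other copy are thus 1 place, and folded distance is the number of bins between 2 places. At the borders the bins may hold some single copy sequence. Among the repeat's bins, rps19 is named only at 84001 to 85000 and ndhF only at 110001 to 111000, not in the image bins. Contacts at a folded distance of 0 to 1 (185 pairs) were set apart as near contacts, and the other 1300 pairs are called long here, with 650 pairs inside a copy and 650 across the copies.

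All plants were wild type, ecotype Col0, 14 days old, and leaf chloroplasts were the source. The 4 EGS libraries are labelled as crosslinked with EGS, a reagent that links amines, and with formaldehyde. The 4 nox libraries are labelled non-crosslinked and serve as negative controls. The protocol text, printed alike for all 8 samples, gives EGS at 5 mM over 45 min and formaldehyde at 4% over 4 h. The labels do not say whether replicates came from separate plants, so p-values measure the spread between these libraries, which may be technical.

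In Arabidopsis the inverted repeat holds the plastid ribosomal RNA operon, which is among its most strongly transcribed genes. It holds tRNA genes and genes for ribosomal proteins (rpl2, rpl23, rps7) too. It also holds ycf2, a very long reading frame whose product belongs to the machinery for import of proteins into the chloroplast, and ndhB, a subunit of the thylakoid NDH complex. Part of ycf1, which encodes a component of the inner envelope translocon, lies at the small single copy border. The copies are kept identical by recombination and gene conversion, so short reads from the repeat cannot be assigned to one copy.

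EGS replicates 1 to 4 held 543800, 520907, 368149 and 351828 contacts, and nox replicates 1 to 4 held 708524, 618672, 357017 and 408539. Contacts inside the repeat made up 33.0% to 33.4% of these in EGS libraries and 29.9% to 37.1% in nox libraries, so the groups overlapped. Long contacts inside the repeat numbered 8072, 3883, 2541 and 1409 in EGS replicates 1 to 4, against 115 and 192 in nox replicates 3 and 4 and up to 3573 in the deeper nox libraries. Nox replicates 3 and 4 therefore rest on few long contacts. They also stood apart from nox replicates 1 and 2 over the whole table, where the chi-square of their counts divided by its degrees of freedom was 7.75 to 20.6. Nox replicates 1 and 2 gave 2.12 with each other and 5.20 to 17.4 with EGS libraries, and EGS libraries gave 1.48 to 3.97 among themselves. Nox replicates 3 and 4 gave 5.57 with each other, above every pair of EGS libraries. Results are also given for the deeper libraries (replicates 1 and 2) and the shallower ones (replicates 3 and 4), where 2 libraries per group allow no permutation test to pass. Values of the deeper libraries are thus values without nox replicates 3 and 4.

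Taken as a percent of each library's long contacts, more lay inside the repeat in every crosslinked library than in any non-crosslinked one. The repeat held 13.2%, 11.4%, 12.3% and 11.0% of all long contacts in EGS replicates 1 to 4, against 6.51%, 6.90%, 4.04% and 4.19% in nox replicates 1 to 4. The repeat holds 11.1% of all long bin pairs, so nox libraries were below an even spread over pairs and EGS libraries were near or above it. The means were 11.99% ± 0.984 in EGS libraries and 5.41% ± 1.504 in nox libraries (SD, n = 4 each), a difference of 6.57 percentage points. An exact two-sided permutation test gave p = 0.0286, the smallest that 70 assignments allow, and 0.05 after adjustment over the 7 measures tested, which is not under 0.05. The deeper libraries differed by 5.59 points and the shallower ones by 7.56 points. As a percent of all contacts the groups overlapped, with 0.4005% in EGS replicate 4 and 0.504% in nox replicate 1, and the means of 0.830% in EGS libraries and 0.244% in nox libraries had an exact two-sided permutation p of 0.0571. For nox replicate 3 the 95% Wilson interval of the share was 3.38% to 4.83%, and it covers counting error only.

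Expressed as contacts per bin pair over the library's mean for all long pairs, the repeat stood at 1.08 ± 0.0885 in EGS libraries and 0.487 ± 0.135 in nox libraries (SD, n = 4 each). Pairs inside a copy and pairs across the copies gave nearly the same values, at 1.07 and 1.09 in EGS libraries against 0.493 and 0.480 in nox libraries. Pairs inside the large single copy region were at 1.24 in EGS libraries and 1.26 in nox libraries, and the groups overlapped. Pairs that join the repeat to the large single copy region were higher in every EGS library too, at 0.852 ± 0.0401 in EGS libraries against 0.662 ± 0.0976 in nox libraries (SD, n = 4 each).

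At matched distances of 2 to 26 kb, the repeat held 0.81, 0.602, 0.671 and 0.601 times the contacts per pair of the large single copy region in EGS replicates 1 to 4. The ratios were 0.458, 0.488, 0.376 and 0.338 in nox replicates 1 to 4. All 8 libraries thus had fewer contacts per bin pair inside the repeat than inside the large single copy region, and the groups did not overlap. Of the repeat's 1300 long pairs, 650 lie across the copies, and short reads cannot be assigned to a copy. Contacts within copies may thus be spread over pairs across copies too, so these ratios do not show that repeat DNA made fewer contacts. The difference between the means of 0.671 ± 0.0986 in EGS libraries and 0.415 ± 0.0698 in nox libraries (SD, n = 4 each) was 0.256, with an exact two-sided permutation p of 0.0286, adjusted 0.05.

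The totals of the repeat's bins moved with these results. Long contacts per bin of the repeat were 0.847 ± 0.0584 times those per bin of the large single copy region in EGS libraries and 0.556 ± 0.0818 times those in nox libraries (SD, n = 4 each), with no overlap. All 155 bins, with the copies not folded, were then balanced to equal long totals. The share of long contacts inside the repeat was then 14.2% ± 0.207 in EGS libraries and 12.9% ± 0.698 in nox libraries (SD, n = 4 each). These were 1.39 points apart (two-sided p = 0.0286, exact permutation). The ratio to the large single copy region then turned round, at 0.911 ± 0.0294 in EGS libraries and 1.14 ± 0.0849 in nox libraries (SD, n = 4 each), a difference of -0.230 (two-sided p = 0.0286 by exact permutation). The level of the repeat relative to the single copy region is therefore a statement about unbalanced counts, and balancing was added after the data were seen.

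**Figure D1:**
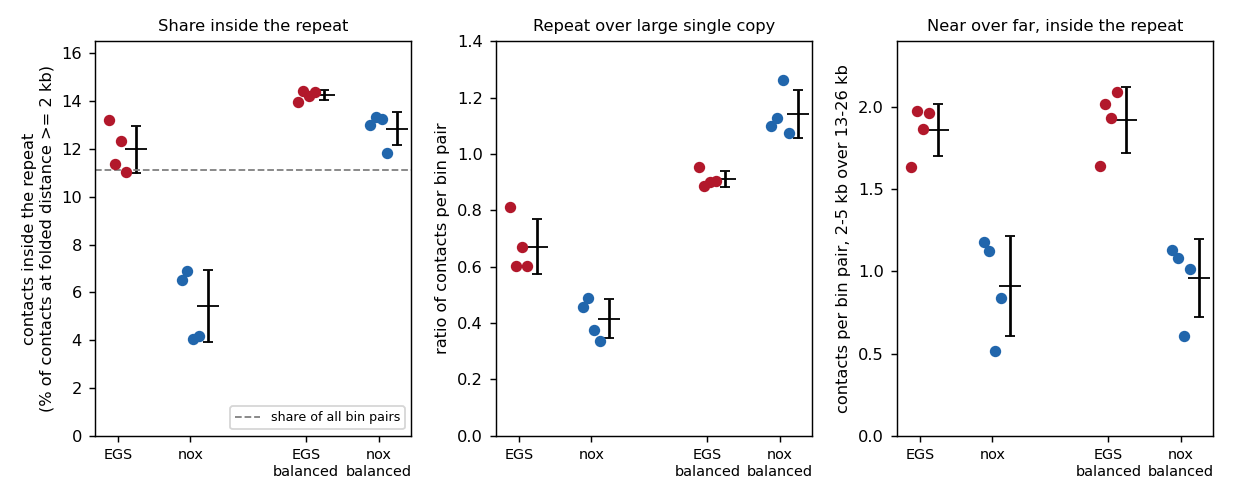
Share of long contacts inside the repeat (left, % of contacts at a folded distance of 2 kb or more). Contacts per bin pair in the repeat over the large single copy region (middle, ratio). Contacts per bin pair at 2 to 5 kb over those at 13 to 26 kb inside the repeat (right, ratio). Values are shown for EGS and nox libraries as counted and after balancing of bin totals. Points are libraries and bars are means with SD (n = 4); the groups are apart in every panel, and the order of the groups in the middle panel turns round after balancing, at 0.911 against 1.14.

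Inside the repeat, crosslinked libraries had contacts that fell with distance. Contacts per pair at folded distances of 2 to 5 kb were 1.64, 1.97, 1.87 and 1.96 times those at 13 to 26 kb in EGS replicates 1 to 4. The ratios were 1.18, 1.12, 0.516 and 0.838 in nox replicates 1 to 4, so nox libraries lay on both sides of 1 and the groups did not overlap. The means of 1.86 ± 0.156 in EGS libraries and 0.913 ± 0.304 in nox libraries (SD, n = 4 each) differed by 0.947 (two-sided p = 0.0286 by exact permutation, adjusted 0.05). The deeper libraries differed by 0.656, the shallower ones by 1.24, and all libraries by 0.964 after balancing (two-sided p = 0.0286 by exact permutation).

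The slope of log10 contacts per pair on log10 folded distance was -0.29, -0.41, -0.34 and -0.30 in EGS replicates 1 to 4 and -0.063, -0.068, 0.48 and 0.23 in nox replicates 1 to 4. It was thus below every nox value in each EGS library, and above 0 in the 2 shallower nox libraries. Each distance counted alike in this fit, and those slopes rest on few contacts. Nox replicates 3 and 4 held 4 and 10 contacts at 2 kb and 2 each at 26 kb. Replicate 3 had 0 at 22 kb and replicate 4 had 0 at 25 kb, and these distances were left out. Means were -0.34 ± 0.054 in EGS libraries and 0.15 ± 0.27 in nox libraries (SD, n = 4 each), and the difference was -0.48 (two-sided p = 0.0286 by exact permutation, adjusted 0.05). Among the deeper libraries the slopes differed by -0.28, and among the shallower ones by -0.68. Without EGS replicate 1, 2, 3 or 4 the slope difference was -0.50, -0.46, -0.48 or -0.49, and the exact permutation p was 0.0571, 0.0857, 0.0857 or 0.0571.

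By distance class, contacts per pair over the library's mean were 1.78 ± 0.0322 in EGS libraries and 0.492 ± 0.264 in nox libraries at 2 to 3 kb (SD, n = 4 each). At 7 to 12 kb they were 0.928 ± 0.114 in EGS libraries and 0.452 ± 0.130 in nox libraries, and at 19 to 26 kb they were 0.792 ± 0.0804 in EGS libraries and 0.532 ± 0.114 in nox libraries. The groups did not overlap in any of the 5 classes. The gap between the groups was 1.29 at 2 to 3 kb and 0.259 at 19 to 26 kb. In the large single copy region the same quantity was 2.84 ± 0.323 in EGS libraries and 1.31 ± 0.198 in nox libraries at 2 to 3 kb. At 13 to 18 kb the groups there overlapped. Levels are not compared between the regions, because the repeat's pairs include those across the copies. After balancing, the groups inside the repeat stayed apart at 2 to 3 kb, at 2.12 ± 0.189 in EGS libraries and 1.10 ± 0.291 in nox libraries (SD, n = 4 each), and overlapped in the other 4 classes.

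**Figure D2:**
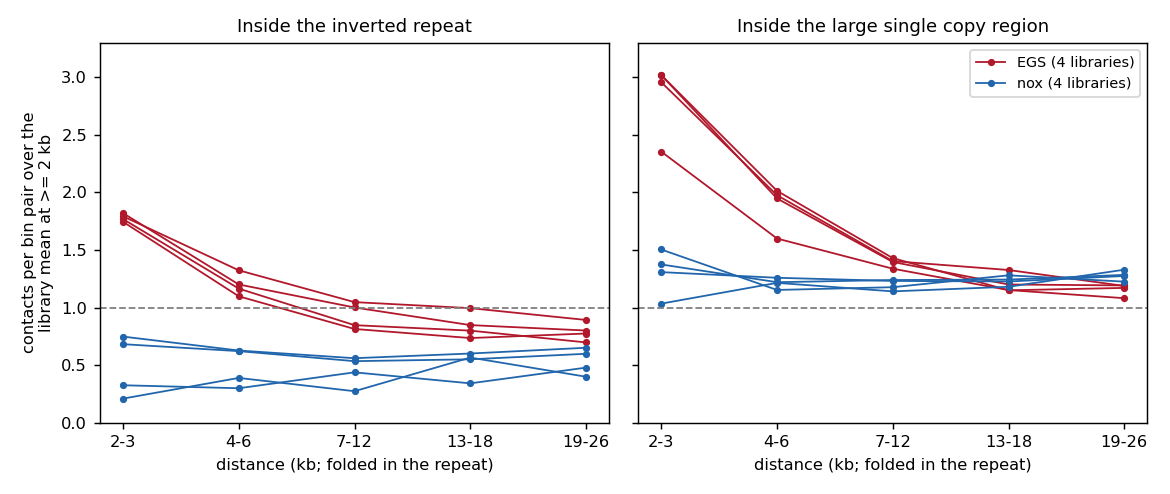
Contacts per bin pair over the library's mean for all pairs at 2 kb or more (vertical axis, ratio) by distance class in kb (horizontal axis), inside the repeat (left) and inside the large single copy region (right), 1 line per library. Inside the repeat the 4 EGS lines lie above the 4 nox lines in every class, with an EGS mean of 1.78 and a nox mean of 0.492 at 2 to 3 kb; in the large single copy region the groups overlap at 13 to 18 kb and the EGS lines are the lower ones at 19 to 26 kb.

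Between 47.0% and 51.8% of long contacts per library were placed across the copies. How reads with a position in each copy were placed is not given in the sources used here, and short reads cannot tell the copies apart, so this share cannot show whether contacts lay within or between copies. Contacts placed across the copies made up 50.1%, 49.9%, 51.8% and 49.9% of long contacts in EGS replicates 1 to 4, against 50.01%, 49.1%, 47.0% and 51.0% in nox replicates 1 to 4. The difference of 1.17 points had an exact two-sided permutation p of 0.371 (adjusted 0.433). With 650 long pairs inside a copy and 650 across, equal contacts per pair would give an even split. The 95% Wilson interval of nox replicate 3, from 54 of 115 contacts, was 38.1% to 56.03%. The near over far ratio was given for each placement too, at 1.83 in EGS libraries and 0.939 in nox libraries inside a copy, and at 1.89 in EGS libraries and 0.908 in nox libraries across the copies (two-sided p = 0.0286 by exact permutation for each).

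The repeat was next divided into 9 blocks of 3 kb, giving 45 block pairs of 945 in the folded genome, and each pair's long contacts were tested with edgeR over the whole genome. Of the 45 pairs, 44 passed the filter on low counts, and 35 were higher and 0 lower in EGS libraries at an adjusted p under 0.05. Over all 912 tested block pairs, 46.8% differed, with 22.7% higher and 24.1% lower. All 44 passed through the EGS libraries alone and 25 would have passed through the nox libraries too, so the count was repeated without a filter. It then gave 35 of 45 pairs higher, against 23.2% higher and 46.7% different in either direction over all 945, and all 45 fitted changes were above 0, with a median log2 change of 1.08 against 0.017 over all block pairs. The pair left out by the filter, block 5 with itself (ndhB, rps7), held 31, 17, 10 and 4 contacts in EGS replicates 1 to 4 and 10, 7, 0 and 0 in nox replicates 1 to 4.

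These counts depend on scaling. With all contacts of a library as its size in place of its long contacts, 0 of 43 pairs inside the repeat and 0 of 903 in all passed (edgeR), with 15 and 46 at an unadjusted p under 0.05. A fit with balanced bin totals as an offset was added after the data were seen. In it, 7 of the 44 filtered pairs inside the repeat were higher and 1 was lower, against 6.69% higher and 1.97% lower over all 912.

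The 5 largest increases were all at the end of the repeat that holds rpl2 and ycf2. Block 1 (84001 to 87000) holds rpl2 and rpl23, which encode proteins of the large ribosomal subunit, with trnI and the start of ycf2. Blocks 2 and 3 (87001 to 90000 and 90001 to 93000) lie wholly in ycf2. Contacts between blocks 2 and 3 numbered 268, 124, 99 and 51 in EGS replicates 1 to 4, against 46, 27, 1 and 5 in nox replicates 1 to 4. The log2 change was 2.35 ± 0.23 (SE; adjusted p = 3.96e-13, edgeR). This pair and the other 4 named below passed the filter through the EGS libraries, since at most 3 nox libraries were above its cut-off, and without a filter this pair was at 2.34 (adjusted p = 9.06e-14, edgeR). The lowest EGS count, from the library with the fewest contacts in all, was above the highest nox count.

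Contacts between blocks 1 and 2 numbered 223, 124, 94 and 51 in EGS replicates and 56, 25, 2 and 0 in nox replicates. The log2 change was 2.23 ± 0.24 (SE; adjusted p = 2.49e-12, edgeR), and 2.22 without a filter (adjusted p = 3.74e-13, edgeR). As CPM after TMM scaling, these were 4049 ± 478 in EGS libraries and 593 ± 418 in nox libraries (SD, n = 4 each), with no overlap. Contacts within block 3 numbered 36, 23, 12 and 9 in EGS replicates against 3, 4, 0 and 0 in nox replicates, and no nox library was above the filter's cut-off there. The unfiltered log2 change was 2.33 ± 0.32 (SE; adjusted p = 2.78e-09, edgeR). Blocks 2 and 1 with themselves likewise had no nox library above the cut-off, and their unfiltered log2 changes were 2.05 and 2.02 (adjusted p = 1.92e-08 and 4.44e-08, edgeR). The groups were apart at both.

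Not all of these passed once the totals of the bins were balanced. Block 1 with 2 and block 3 with 3 passed, at log2 changes of 0.69 and 1.16. Both entered this fit through the EGS libraries, with 3 nox libraries above the filter's cut-off for block 1 with 2. No nox library was above it for block 3 with 3. No balanced fit without a filter is given, so these calls are a description only. Block 2 with 3, block 2 with 2 and block 1 with 1 were at 0.44, 0.94 and 0.93, with adjusted p = 0.0993, 0.0640 and 0.0656 (edgeR).

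Across the rest of the repeat, blocks 2 (ycf2) and 7 (the end of rrn16S, trnI, trnA and the start of rrn23S) were higher in each of their 9 tested pairs. Block 8, which holds much of rrn23S and rrn4.5S, was higher with 3 of 9, at a median log2 change of 0.44. Block 9, with trnR, trnN and the ycf1 border, was higher with 6 of 9 at a median of 0.50. Block 8 with block 4 (the end of ycf2, trnL and ndhB) had the smallest change, 0.086, and its counts of 155, 53, 42 and 29 in EGS replicates against 104, 90, 5 and 6 in nox replicates overlap after scaling. Groups were apart, with EGS libraries above, in 32 of the 44 pairs, against 18.2% of all tested block pairs. All counts in this paragraph are of filtered pairs, with no unfiltered count per block given. Of these 44 pairs, 19 had all 4 EGS but not all 4 nox libraries above the cut-off, and they include pairs of blocks 2 and 7.

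The change was then set against the separation of the blocks, as a description with no test. The filtered pairs were used, and 19 of the 44 had all 4 EGS but not all 4 nox libraries above the cut-off. Every tested pair of a block with itself was among these, and no unfiltered count by separation is given here. Among the 16 tested pairs of a block with itself or the next block, 15 were higher and the median log2 change was 1.44. Among the 28 pairs further apart, 20 were higher and the median was 0.82. With balanced totals all 16 close pairs stayed above 0 (0.14 to 1.29), 7 of them passed, and their median was 0.61. The 28 farther pairs then ran from -0.43 to 0.40 around a median of -0.044, with 11 above 0, none higher by edgeR's adjusted p and 1 lower, block 4 with block 8. The pairs that were higher under balancing lay along the whole repeat: blocks 1 and 2, 3 with itself, 3 and 4, 4 and 5, 6 and 7, 8 and 9, and 9 with itself. Of these, blocks 3 and 9 with themselves had no nox library above the cut-off. Blocks 1 and 2 and blocks 6 and 7 had 3. Blocks 3 and 4, 4 and 5, and 8 and 9 had all 4.

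**Figure D3:**
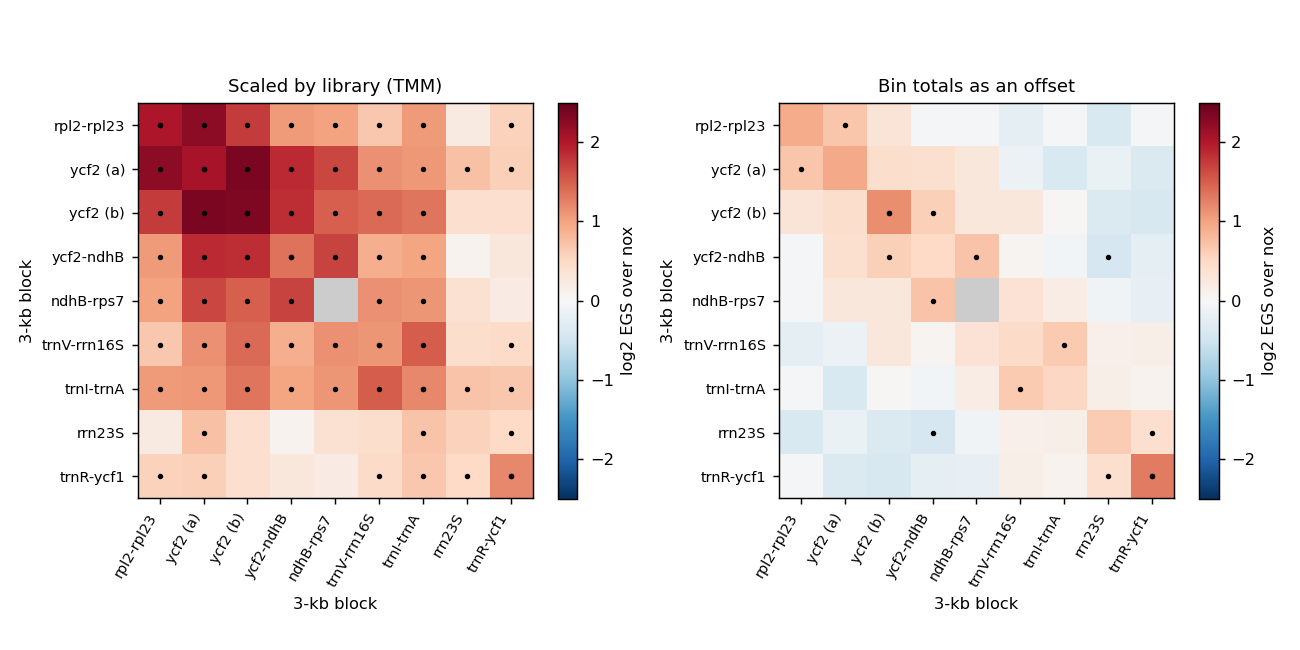
Log2 change of long contacts, EGS over nox, for pairs of 3-kb blocks of the folded repeat, in order from the rpl2 end to the ycf1 end. The fit was scaled by library (left) or had balanced bin totals as an offset (right). Black dots mark an adjusted p under 0.05 (35 and 8 of 44 pairs) and the grey square is the pair that was not tested; the change is positive in every tested pair at left and mostly near the diagonal at right.

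Places are numbered by the bin of the first copy, from 84 at the rpl2 end (84001 to 85000) to 110 at the ycf1 end. Single places were compared by the total of their long contacts with repeat places, tested over all folded places of the genome, so each value is relative to what single copy places do with the repeat. Of the 27 repeat places, 21 were higher and 0 lower in EGS libraries, against 31.2% higher and 61.7% different in either direction over all folded places. The median log2 change was 0.47 inside the repeat and 0.018 over all places. EGS libraries were apart from and above nox libraries at 14 of the 27 places, against 20.3% of all folded places. Fitted alone, the deeper libraries gave 20 places and the shallower ones 12, all higher. In these fits 77 and 40 of all folded places differed in either direction. With all contacts as library size, 0 of 27 passed by edgeR, and 4 had an unadjusted p under 0.05. Leaving out 1 library at a time gave 15 to 21 places.

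Of the 10 places from rpl2 to the end of ycf2, 9 were higher, at log2 changes of 0.22 to 1.68 for all 10. Place 92 in ycf2 (92001 to 93000) had the largest change, with 593, 253, 187 and 100 long contacts inside the repeat in EGS replicates and 115, 77, 3 and 3 in nox replicates. Its log2 change was 1.68 ± 0.12 (SE; adjusted p = 1.02e-18, edgeR). Place 88, also in ycf2, had 1.23 ± 0.139 contacts per bin pair over the library's mean in EGS libraries and 0.236 ± 0.116 in nox libraries (SD, n = 4 each). Its log2 change was 1.55 ± 0.13 (SE; adjusted p = 3.10e-16, edgeR). Groups were well apart at both places. Place 86, where rpl23, trnI and ycf2 meet, and place 91 in ycf2 had log2 changes of 1.28 and 1.25. Place 90, between these and likewise in ycf2, was at 0.22 ± 0.12 (SE) and did not pass (adjusted p = 0.0932, edgeR).

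All 7 places from trnL to trnV were higher, including the 4 with ndhB. Place 97 (97001 to 98000), with ndhB and rps7, a protein gene of the small ribosomal subunit, held 560, 263, 177 and 126 contacts in EGS replicates and 206, 118, 4 and 8 in nox replicates. Its log2 change of 0.97 ± 0.12 was the largest of this stretch (SE; adjusted p = 2.41e-10, edgeR).

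Places of the ribosomal RNA operon lay on both sides of the threshold. The 4 places from rrn16S through trnI and trnA to the first part of rrn23S were higher, with 0.95 ± 0.15 (SE) at place 103, where trnI and trnA lie (adjusted p = 9.80e-08, edgeR). That place held 844, 411, 269 and 124 contacts in EGS replicates against 278, 193, 3 and 13 in nox replicates. The other 3 places, over rrn23S and rrn4.5S, were at -0.12, 0.097 and 0.015 and did not pass. Of the 3 places from trnR to ycf1, only place 110 at the border was higher, at 0.39 ± 0.13 (SE; adjusted p = 0.00648, edgeR), and its groups overlapped. Places 108 and 109 were at -0.20 and -0.053. Place 110 is a border place, with ndhF named in its first-copy bin only.

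Per bin pair, the groups had their highest and lowest means at different places. In EGS libraries place 103 had the highest mean, 1.48 ± 0.218 times the library's mean, and place 84 at the rpl2 end the lowest, 0.748 ± 0.0521 (SD, n = 4 each). In nox libraries place 108 (trnR) had the highest mean, 0.722 ± 0.161, and place 92 the lowest, 0.183 ± 0.0928 (SD, n = 4 each). Places 102, 105 and 108 were the only 3 of 27 where the groups overlapped on this scale. Place 84 is a border place, with rps19 named in its first-copy bin only.

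**Figure D4:**
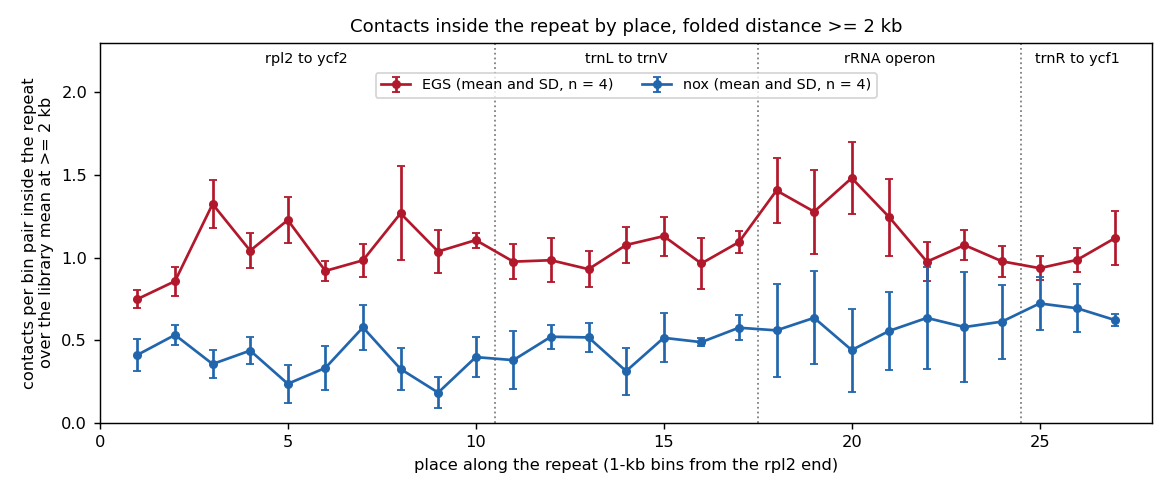
Contacts per bin pair inside the repeat over the library's mean (vertical axis, ratio) for each of the 27 places from the rpl2 end (horizontal axis, 1-kb bins), as means with SD over 4 libraries per group; dotted lines separate 4 stretches of genes. EGS means exceed nox means at all places, at 1.48 against 0.440 at the place of trnI and trnA and 0.936 against 0.722 at that of trnR.

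The places were also joined into 4 stretches of genes. Pairs within the rpl2 to ycf2 stretch were at 1.36 ± 0.123 times the library's mean in EGS libraries and 0.276 ± 0.0637 in nox libraries (SD, n = 4 each). Pairs within the ribosomal RNA operon were at 2.06 ± 0.330 in EGS libraries and 0.853 ± 0.607 in nox libraries. Pairs that join trnL to trnV with trnR to ycf1 were at 0.784 ± 0.105 in EGS libraries and 0.755 ± 0.0838 in nox libraries, the only combination of stretches whose groups overlapped on this scale. Nox replicates 3 and 4 held 7 and 14 contacts within rpl2 to ycf2 and 6 each within the operon. Relative to the mean inside the repeat at the same distance, pairs within rpl2 to ycf2 were at 0.957 ± 0.0782 in EGS libraries and 0.615 ± 0.133 in nox libraries, with no overlap. Pairs within the operon were then at 1.30 ± 0.189 in EGS libraries and 1.58 ± 0.574 in nox libraries (SD, n = 4 each), and the groups overlapped. On this scale 2 combinations were apart the other way. Pairs that join the operon with trnR to ycf1 were at 1.12 ± 0.0589 in EGS libraries and 1.62 ± 0.185 in nox libraries (SD, n = 4 each). Pairs that join trnL to trnV with trnR to ycf1 were at 0.894 ± 0.0782 in EGS libraries and 1.62 ± 0.434 in nox libraries (SD, n = 4 each). No test was run on the stretches.

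Near contacts made up most contacts inside the repeat, 97.5% ± 1.41 in EGS libraries and 99.3% ± 0.691 in nox libraries (SD, n = 4 each). The groups overlapped and the difference of -1.79 points had an exact two-sided permutation p of 0.0571 (adjusted 0.08). Without EGS replicate 4 it was -2.22 points, with an exact permutation p of 0.0286, and without EGS replicate 1 it was -1.12 points, with an exact permutation p of 0.114. Without nox replicate 3 or 4 it was -1.59 or -1.61 points, each with an exact permutation p of 0.114. Within the near contacts, those that join a place to itself were fewer in every EGS library, at 72.3% ± 1.66 of contacts inside the repeat against 78.0% ± 1.20 in nox libraries (SD, n = 4 each). Those that join neighbouring places were more frequent, at 25.2% ± 0.534 in EGS libraries against 21.3% ± 0.600 in nox libraries (SD, n = 4 each).

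Placement across the copies among near contacts was 41.5%, 41.2%, 40.8% and 40.3% in EGS replicates and 42.8%, 43.2%, 39.7% and 39.8% in nox replicates. The difference was -0.447 points (two-sided p = 0.629 by exact permutation), and it was 0.0220 without nox replicate 1 and 0.157 without nox replicate 2. Bin edges are not symmetric in the copies, so the image of a bin is shared between a bin and one of its neighbours. Contacts with the image bin and with that neighbour were 64.8% and 34.2% of near contacts across the copies in EGS libraries and 66.8% and 33.0% in nox libraries. Contacts with the neighbour on the other side, which holds no image of the bin, numbered 917, 766, 509 and 268 in EGS replicates and 238, 129, 21 and 67 in nox replicates. They made up 0.999% ± 0.303 of near contacts across the copies in EGS libraries and 0.139% ± 0.0779 in nox libraries (SD, n = 4 each), with no overlap.

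At the level of single 1-kb bin pairs, 170 of the 185 near pairs and none of the 1300 long pairs held enough counts for the edgeR test. Of the 170, 61 were higher and 45 lower in EGS libraries, against 64% that differed, 32.3% higher and 31.8% lower, over all 381 tested pairs of the genome, so the repeat's count stands near the background. The direction followed the kind of pair. Among the 54 bins paired with themselves, 4 were higher and 22 lower, and among the 27 image pairs 3 were higher and 10 lower. Among the 52 pairs of neighbouring bins within a copy, 38 were higher and 4 lower, with a median log2 change of 0.86. Single copy bins moved the same way, with 3 of 101 same-bin pairs higher and 65 lower, and 51 of 99 pairs of neighbours higher and 11 lower at a median of 0.26. Across the copies, 26 pairs hold the shared image neighbour, and 5 of these were higher and 9 lower. The other 26 averaged 35.3, 29.5, 19.6 and 10.3 contacts per pair in EGS replicates and 9.15, 4.96, 0.808 and 2.58 in nox replicates, so the 11 that passed the filter did so through the EGS libraries and their direction is not a result. Without a filter, 17 of the 26 were higher and 0 lower (edgeR), against 0.918% higher over all 12089 pairs with a contact. That share is not a like background, since 11697 of the genome's pairs are long and only 381 pairs held enough counts for the filtered test.

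**Figure D5:**
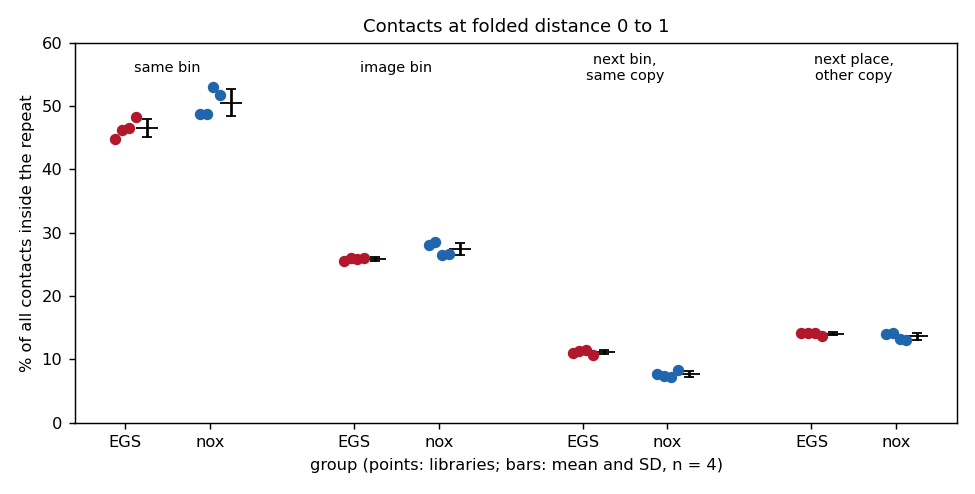
Contacts at a folded distance of 0 to 1 as a percent of all contacts inside the repeat (vertical axis) for EGS and nox libraries, by kind of pair: a bin with itself, with its image, with the next bin in the same copy, and with the next place in the other copy. Points are libraries and bars are means with SD (n = 4); same-bin and image contacts are lower and next-bin contacts within a copy higher in EGS libraries, and the groups overlap for next-place contacts across the copies.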

How the data were processed

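Hi-C of chloroplast membrane preparations was analysed in 4 EGS and 4 nox libraries. The authors deposited raw counts of contacts without normalization for every pair of 1-kb bins; per the submitters' processing notes, Trim Galore 0.4.1 and Juicer were used with TAIR10. How read pairs were filtered and reads with several positions were handled is not given in the sources used here. Columns were matched to samples by name, groups came from titles.

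Bin b of the second copy was folded onto 238 - b. Measures with 1 value per library were compared with two-sided exact permutation tests (70 assignments, smallest p 0.0286) with Benjamini-Hochberg adjustment over 7 measures. Distances without contacts were left out of the slope. Block pairs, place totals and bin pairs went through edgeR 4.0.16, R 4.3.3 (quasi-likelihood, TMM, filterByExpr with a minimum count of 10, prior count 2, adjusted p under 0.05 over the whole table); library size was the total of the tested table. DESeq2 1.42.0, other scalings, no filter, depth classes, a replicate block and left-out libraries were alternatives. Balancing by iterative correction of each bin's long total and a Poisson slope were added after the data were seen. Python 3.11.15, numpy 2.4.6, pandas 2.3.3, scipy 1.17.1 and matplotlib 3.10.9 were used, and the procedures were tested on simulated data. Genes came from a RefSeq table of TAIR10.1, whose coordinates are not printed; names are those of the first copy, and the operon stretch ends at rrn4.5S. Named block pairs and places are up to 5 increases and 5 decreases past the threshold without overlap between groups; none decreased. The members, gene list and measures were chosen with earlier results of these data known. Totals ranged from 351828 to 708524 contacts, and 95% Wilson intervals cover counting error only.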

Additional observations from a re-analysis of the deposited data

Results flagged for a closer look

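Among 34 groups of per-library values, 1 held a library that a range test for 4 values set apart. The share of long contacts inside the repeat that were placed across the copies was 51.8% in EGS replicate 3, against 49.9% to 50.1% in the other EGS libraries. This test cannot mark 2 libraries that stand apart together, as nox replicates 3 and 4 did over the whole table. Chance flags about 1 in 20 groups. Its 95% Wilson interval, 49.8% to 53.7%, includes an equal split.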

How the results depend on the processing

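Leaving out 1 library at a time gave differences of 6.12 to 7.07 points in the long share, -2.22 to -1.12 points in the near share, -1.01 to 0.157 in the near share placed across copies (reversed at 0.0220 without nox replicate 1 and 0.157 without nox replicate 2), 0.397 to 1.76 in the long share placed across, 0.814 to 1.04 in near over far, -0.55 to -0.37 in slope and 0.210 to 0.280 in the ratio to the large single copy region; counts were 30 to 37 block pairs, 15 to 21 places and 93 to 125 bin pairs. The deeper and shallower libraries gave 0.656 and 1.24 for near over far, and -0.283 and -0.679 for slope. The shallower ones gave 12 places, where 40 of all folded places differed in either direction. As a percent of all contacts, the long share was 0.830% in EGS and 0.244% in nox libraries, a difference of 0.586 points (exact permutation p = 0.0571), and the groups overlapped. Balancing reversed the ratio to the large single copy region, to -0.230; 8 block pairs passed, 7 of them among the 35 and 1, block 4 with 8, lower. With library size from all contacts, 0 block pairs and 0 places passed (edgeR; 15 and 4 at an unadjusted p under 0.05); their median log2 changes inside the repeat were then 1.80 and 1.69, against 0.67 and 1.202 over all features. Without a filter, 57 of 1484 bin pairs (52 higher, 5 lower) and 56 of 325 pairs of 1-kb places passed, all 56 higher. Over all features, 189 of 12089 bin pairs and 286 of 7999 pairs of 1-kb places passed in either direction. More pairs were tested there. With the filter, 26 of 70 pairs of 1-kb places passed, 18 higher and 8 lower. Over all, 42 of 91 passed, and those 91 include the repeat's 70, so the count is no result about the repeat. DESeq2 gave 30 block pairs, 18 places and 105 bin pairs. TMM left out gave 72 bin pairs higher and 29 lower, against 61 and 45, and 219 of 381 passed over all bin pairs. A fit with the replicate block gave 34 block pairs, 19 places and 113 bin pairs; correlations of same-numbered libraries were 0.137, -0.105, -0.108 and 0.0689, so the numbers were not taken as pairing. Of 156 values for single named block pairs and places under alternatives, 144 kept their direction and side of the threshold and 12 kept only their direction. Depth limits single long pairs: nox replicate 3 held 115 long contacts over 1300 pairs.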
